A study of Mus musculus with 3 samples.

Results

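The genes described here are the protease-activated receptors F2r, F2rl1 and F2rl2 (the receptors PAR1, PAR2 and PAR3), the beta-arrestins Arrb1 and Arrb2, and the G protein alpha subunits Gna11, Gna12, Gna13 and Gnaq. They were taken by symbol, 9 of the 29298 genes listed in the count tables. Their transcripts were read in CD45+ cells selected from infarcted mouse hearts after permanent ligation, on the BD Rhapsody single-cell platform. The mice were F7fl/fl with CX3CR1Cre and F7fl/fl WT, so all carried floxed alleles of F7, the gene of coagulation factor VII. CX3CR1Cre recombines such alleles in cells that express Cx3cr1, macrophages and monocytes among them. Hearts were taken at several times after ligation. The labels and file headers assign no genotype, time or age to single hearts, so genotypes and times were not compared. The 18 sample tags, each a biological replicate per the labels' protocol, were pooled into 3 libraries of 7, 5 and 6 tags. Tests between classes compare cells of the same tag. Shares of cells and levels in parts of a class are pooled over tags and carry no test.

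Protease-activated receptors are cut open by proteases: the new end of the receptor then binds the receptor itself as a tethered ligand. Thrombin cuts PAR1 and PAR3, while the complex of tissue factor (F3) with factor VIIa and factor Xa cuts PAR2, as do trypsin-like proteases. Cut receptors signal through Gq and G11 to phospholipase C and calcium, through G12 and G13 to the cytoskeleton, and are then silenced or rerouted by beta-arrestins. In the heart, PAR1 and PAR2 are known from fibroblasts, endothelium and muscle cells, and the complex of tissue factor and factor VIIa ties them to coagulation.

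Of 25762 cells, 25640 with at least 200 genes were kept and sorted into 8 classes by marker transcripts, the first rule met deciding. There were 14885 macrophages (C1q transcripts), 2366 monocytes (Ly6c2), 485 neutrophils (S100a8, S100a9 and Csf3r), 1340 dendritic cells (DC, Flt3), 1225 T cells (Cd3), 411 natural killer (NK) cells (Ncr1 or Klrb1c with Nkg7), 748 B cells (Cd79a) and 414 fibroblasts (collagens and Dcn), and 3766 cells met no rule. None of the 9 genes enters a rule. Fibroblasts are not CD45+ cells and were carried through the selection. Many cells met more than 1 rule: 78.8% of T cells, 65.6% of B cells and 49.9% of NK cells also met another one. In these classes all 7 macrophage markers checked were found, at a median of 53.2% (T), 64.8% (B) and 43.8% (NK) of their macrophage level, against 9.28%, 23.8% and 5.77% in cells that met no other rule. Receptor values in T and NK cells are therefore also given for cells that met no other rule. Total molecules per tag ran from 10136595 to 62344127, and levels are given in CPM, the gene's molecules per 1000000 molecules of the class in the tag. Library 1 was read with other beads and another pipeline release than libraries 2 and 3 and kept intronic reads, and its run name includes d3. Libraries shared 4, 3 and 0 cell indices pairwise.

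The 3 receptor genes are neighbours on chromosome 13 of GRCm38. F2rl1 (ENSMUSG00000021678) lies at chr13:95511732-95525227 on the minus strand, F2r (ENSMUSG00000048376) at chr13:95601803-95618487 on the minus strand, and F2rl2 (ENSMUSG00000021675) at chr13:95696853-95702739 on the plus strand. F2rl2 sits inside the gene Iqgap2, which runs on the minus strand, and overlaps none of its exons. The labels and headers do not say whether counting used strand, so intronic Iqgap2 reads in library 1 cannot be told apart from F2rl2 reads. Iqgap2 itself stood at a median of 162 CPM in DCs and 155 CPM in macrophages. RefSeq promoter entries (GRCm38.p6) matched 6 of the 9 genes. Shown are the bases of these entries that lie before both the RefSeq start and the start given above, 229 for F2r (chr13:95618488-95618716, minus strand) and 183 for F2rl2 (chr13:95696670-95696852, plus strand), because the neighbours had their highest medians in different classes, F2r in fibroblasts and F2rl2 in DCs. NK and T cells held both, and among cells that met no other rule F2rl2 was higher in NK cells than in DCs. Capitals mark matches to the AP-1 site TGAGTCA and to the GC box GGGCGG, searched on both strands.
F2r: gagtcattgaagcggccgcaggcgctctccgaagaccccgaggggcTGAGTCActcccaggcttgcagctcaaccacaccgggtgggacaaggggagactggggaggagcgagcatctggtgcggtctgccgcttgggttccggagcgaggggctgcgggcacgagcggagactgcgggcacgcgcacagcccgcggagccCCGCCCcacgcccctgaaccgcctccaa
F2rl2: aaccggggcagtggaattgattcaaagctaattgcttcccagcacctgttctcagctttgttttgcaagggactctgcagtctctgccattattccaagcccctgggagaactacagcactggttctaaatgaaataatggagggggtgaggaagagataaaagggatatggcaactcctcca
The F2r stretch is 70.7% G and C with 22 CpG pairs, and holds 1 AP-1 match and 1 GC box, read on the other strand as CCGCCC. The F2rl2 stretch is 47.5% G and C with 1 CpG pair, and holds 0 matches to either. Of 32851 mouse promoter entries cut to 229 bases, 4.16% hold the AP-1 letters and 29.7% the GC box, and the median entry has 5 CpG pairs. Cut to 183 bases, 3.18% and 21.5% hold them, and the median is 4. A match describes letters only.

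F2r was read mainly in fibroblasts, T cells and NK cells. In fibroblasts it stood between 91.0 and 250 CPM (median 141, 9 tags), in NK cells between 8.71 and 49.1 CPM (median 33.2, 11 tags) and in T cells between 14.4 and 77.7 CPM (median 29.2, 18 tags). Macrophages held 0.0857 to 1.39 CPM (median 0.4996, 18 tags). Every fibroblast, T cell and NK cell sum lay above every macrophage sum, and the ranges of NK and T cells overlapped. The median was 0.221 CPM in monocytes and 0 in neutrophils, DCs and B cells, where single tags reached 20.9 CPM at most. A count of 0 allowed 1.05 CPM or more in DC sums, 2.55 or more in B cell sums and 6.41 or more in neutrophil sums. These limits lie above the macrophage median. Fibroblasts held 2.65% of all molecules and 59.2% of the 3673 F2r molecules, T cells 19.03% and macrophages 5.06%.

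Within tags, macrophages held 329-fold less F2r than fibroblasts (log2 difference -8.36 ± 0.32 SE, adjusted p = 6.22e-41), 57.3-fold less than T cells (-5.84 ± 0.29, adjusted p = 1.95e-33) and 49.1-fold less than NK cells (-5.62 ± 0.43, adjusted p = 4.18e-21), all by edgeR's quasi-likelihood test. F2r was lower in macrophages in all 9, 18 and 11 tags compared. It passed the expression filter mainly through sums of these 3 classes, where it is high, and the p-values are to be read with this limit. Within each library the difference from T cells was -6.47, -5.32 and -5.23. Against B cells the log2 difference was -1.98 ± 0.61 (adjusted p = 0.00489), and without library 3 it was -0.81 (adjusted p = 0.554). Of 29 F2r molecules in B cells, 21 lay in 2 cells that met no other rule, and macrophages were higher in 12 of 18 tags, against the sign of the fit. A count of 0 in a B cell sum allowed 2.55 CPM or more, above every macrophage tag. The count of tags therefore cannot place B cells below macrophages. F2r did not pass the test against monocytes, neutrophils or DCs.

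In T cells that met no other rule F2r was higher than in all T cells, 76.2 against 32.5 CPM with all tags pooled, and in such NK cells it was 53.5 against 29.1 CPM. The 7 fibroblast markers checked, all found, summed to 1125 CPM in all T cells, 92.7 CPM in T cells that met no other rule, 62.7 CPM in macrophages and 46992 CPM in fibroblasts. With cells of 1 rule only, the log2 difference of macrophages from T cells was -6.53 ± 0.64 (edgeR adjusted p = 2.10e-12). T cells with gamma-delta chain transcripts held 64.4 CPM (243 cells), Cd8 T cells 32.0 CPM (382 cells) and Cd4 T cells 20.4 CPM (356 cells). The gamma-delta T cells led the Cd4 T cells in every library, 71.9 against 32.4, 67.7 against 7.73 and 58.6 against 21.3 CPM. These parts of the T class include cells that also met another rule, and how far such mixing differs between them was not tested. They were drawn after the data were seen and were not tested. Among fibroblasts, those with an Acta2 share of at least 0.1% of molecules (Acta2 is the smooth muscle actin of myofibroblasts) held 166 CPM and the others 148 CPM, and library 2 had the opposite order, 111 against 146 CPM.

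An F2r molecule was found in 77.1% of fibroblasts (95% Clopper-Pearson interval 72.7 to 81.0, median 26473 molecules per cell), 27.7% of T cells (25.2 to 30.3, 14294 molecules) and 23.4% of NK cells (19.4 to 27.8, 10107 molecules). The share was 0.793% of macrophages (0.657 to 0.949, 20563 molecules) and 1.20% of B cells (0.552 to 2.27, 12364.5 molecules). After each cell was thinned to 1000 molecules, the shares were 13.6% of fibroblasts, 5.06% of T cells, 3.41% of NK cells and 0.00672% of macrophages (1 of 14876 cells). The order of these 4 classes was the same with and without thinning. Intervals cover counting error only.

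F2rl1 was read mainly in T cells. All 18 tags held it there, between 4.57 and 26.6 CPM (median 14.6). NK cells followed with 0 to 25.5 CPM (median 3.32, 11 tags, 2 at 0) and fibroblasts with 0 to 7.38 CPM (median 1.64, 9 tags, 2 at 0), and the ranges of these 3 classes overlapped. T cells held 63.4% of the 459 F2rl1 molecules. The level in T cells differed between libraries, with medians of 22.4, 12.9 and 8.39 CPM, and the libraries' times and genotypes are not given. With all tags pooled, Cd8 T cells held 17.3 CPM, Cd4 T cells 13.9 and gamma-delta T cells 12.1 CPM. In libraries 1, 2 and 3 the values were 27.2, 11.4 and 11.6 CPM in Cd8 T cells, 22.4, 11.3 and 10.3 CPM in Cd4 T cells and 14.8, 13.7 and 9.68 CPM in gamma-delta T cells, which were thus highest in library 2 and lowest in the other two. These parts also include cells that met another rule. Pooled F2rl1 was 25.7 CPM in T cells that met no other rule against 13.5 in all T cells, and 13.7 against 6.002 CPM in NK cells.

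Macrophages were almost without F2rl1: 13 molecules in 12 of 14885 cells, 0.0806% (0.0417 to 0.141), against 12.98% of T cells (11.1 to 14.99) and 0.401% of B cells. Their highest tag stood at 0.113 CPM, below the lowest T cell tag. The log2 difference from T cells was -7.97 ± 0.35 (251-fold, edgeR adjusted p = 7.44e-37), from NK cells -6.40 ± 0.56 (adjusted p = 8.41e-18) and from fibroblasts -6.37 ± 0.61 (adjusted p = 2.46e-16). F2rl1 passed the expression filter mainly through its T cell sums, so that it was tested at all depended on its level there. The p-values are to be read with this limit, and the fold values rest on the 13 macrophage molecules. In libraries 1 and 2 the difference from T cells was -8.76 and -6.99. The test against monocytes also passed (-2.75 ± 0.52, edgeR adjusted p = 4.23e-06), but 26 of the 27 F2rl1 molecules of monocytes lay in 1 cell of library 1. The call thus rests on that cell. Macrophages were higher in 5 of 9 tags and lower in 1, and without library 1 the value was 1.16 (adjusted p = 0.921). A monocyte count of 0 allowed 0.525 CPM or more, above every macrophage tag, so these tags cannot place monocytes below macrophages. Only 3 molecules were found in B cells, and the call against B cells (adjusted p = 0.0461) was lost without library 1 (0.138) and without library 2 (0.472).

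Too few macrophages held F2rl1 to compare those with and without a transcript of the PAR2-cutting complex. An F2rl1 molecule was found in 0 of 1042 macrophages with F3, which allows a share of cells with a molecule of up to 0.288%, and in 12 of 13843 without F3 (0.0867%, a share within that limit). Of 2463 macrophages with an F7 molecule, 1 held F2rl1. The F2r share was 0.672% of macrophages with F3 and 0.802% of those without, and 0.771% of macrophages with F7 and 0.797% of those without. The 95% intervals of each pair of F2r shares overlapped. F7 is the floxed gene, the genotype of the tags is not given and cells were pooled over tags. Groups by F7 molecule therefore cannot be told apart from genotype or library.

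With all cells of a class counted, F2rl2 was the one receptor with its highest median in DCs. It ranged from 0 to 15.2 CPM there (median 5.71, 15 tags, 1 at 0), from 0 to 25.5 CPM in NK cells (median 2.86, 11 tags) and from 0 to 6.34 CPM in T cells (median 2.19, 18 tags). Macrophages held 0 to 0.970 CPM (median 0.0989, 18 tags), and their range overlapped those of all 3 classes. F2rl2 did not pass the expression filter of the joint count test. A two-sided permutation test over the tag differences, chosen after seeing this, was run for the 7 classes against macrophages, with p adjusted over the 7. DCs were higher in 14 of 15 tags (mean difference 5.47 CPM, exact p = 0.00012, adjusted 0.00043). T cells were higher in 16 of 18 tags (mean difference 2.44 CPM, permutation p = 2e-05, the smallest that these permutations give, adjusted 0.00014), and NK cells in 8 of 11 tags (4.38 CPM, exact p = 0.0078, adjusted 0.018). Monocytes, neutrophils, B cells and fibroblasts did not pass, with adjusted p from 0.12 to 0.7. Without library 1 the DC call was lost (8 tags, exact adjusted p = 0.055), and the NK call was lost without library 1 (0.58) and without library 2 (0.073). Pooled F2rl2 in cells that met no other rule was 5.98 CPM in DCs against 5.01 in all DCs, 3.48 against 2.84 in T cells and 9.29 against 4.24 in NK cells. Among such cells NK cells thus stood above DCs. Their median over tags was also higher, 25.4 CPM (2 tags) against 8.18 CPM in DCs (13 tags). With such cells only, DCs were higher than macrophages in 12 of 13 tags (mean difference 6.87 CPM, exact adjusted p = 0.0034). T cells were then higher in 4 of 4 tags and NK cells in 2 of 2, where the smallest exact p is 0.12 and 0.5. Within library 1 and within library 2 the count test did include F2rl2. It passed the filter there through sums of classes where it is high, not through macrophages. These fits are therefore no separate support, and only their differences are given. The log2 difference of macrophages from DCs was -5.80 ± 0.60 in library 1 and -4.84 ± 0.98 in library 2. From T cells it was -5.24 ± 0.67 in library 1 and -2.46 ± 0.97 in library 2.

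Among DCs, F2rl2 stood highest in cells with Xcr1, the chemokine receptor of conventional type 1 DCs. These 155 cells held 18.2 CPM, and 22.6% of them had an F2rl2 molecule (16.3 to 30.0, median 22104 molecules per cell). DCs with Cd209a and no Xcr1 held 3.07 CPM, and 3.41% of 587 had one (2.09 to 5.21, 13247 molecules). DCs with Ccr7 alone held 3.03 CPM and DCs with none of these markers 1.37 CPM. The Xcr1 group was highest in all 3 libraries, at 18.2, 22.7 and 14.8 CPM, against 3.06, 3.30 and 2.96 CPM with Cd209a. For comparison, 0.802% of B cells (12364.5 molecules) and 0.269% of macrophages (20563 molecules) had an F2rl2 molecule. The grouping was made after the data were seen and was not tested.

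**Figure D1:**
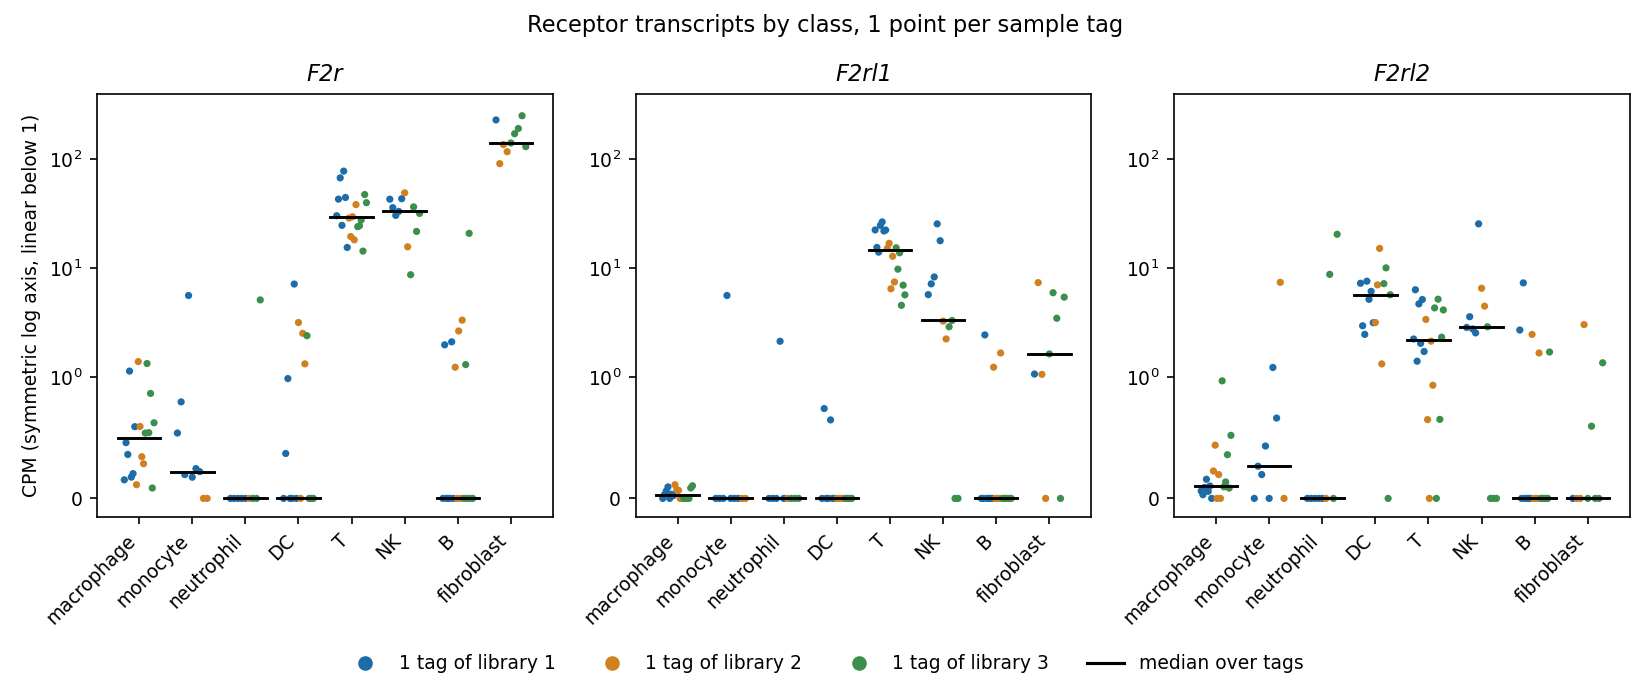
Levels of the 3 receptor transcripts in CPM (vertical, symmetric log axis that is linear below 1) in 8 cell classes, with 1 point per sample tag of at least 20 cells, coloured by library, and a bar at the median. All cells of each class are counted. F2r points of fibroblasts, T and NK cells all sit above the macrophage points, F2rl1 is highest in T cells (median 14.6 CPM) and F2rl2 in DCs (median 5.71 CPM).

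**Figure D2:**
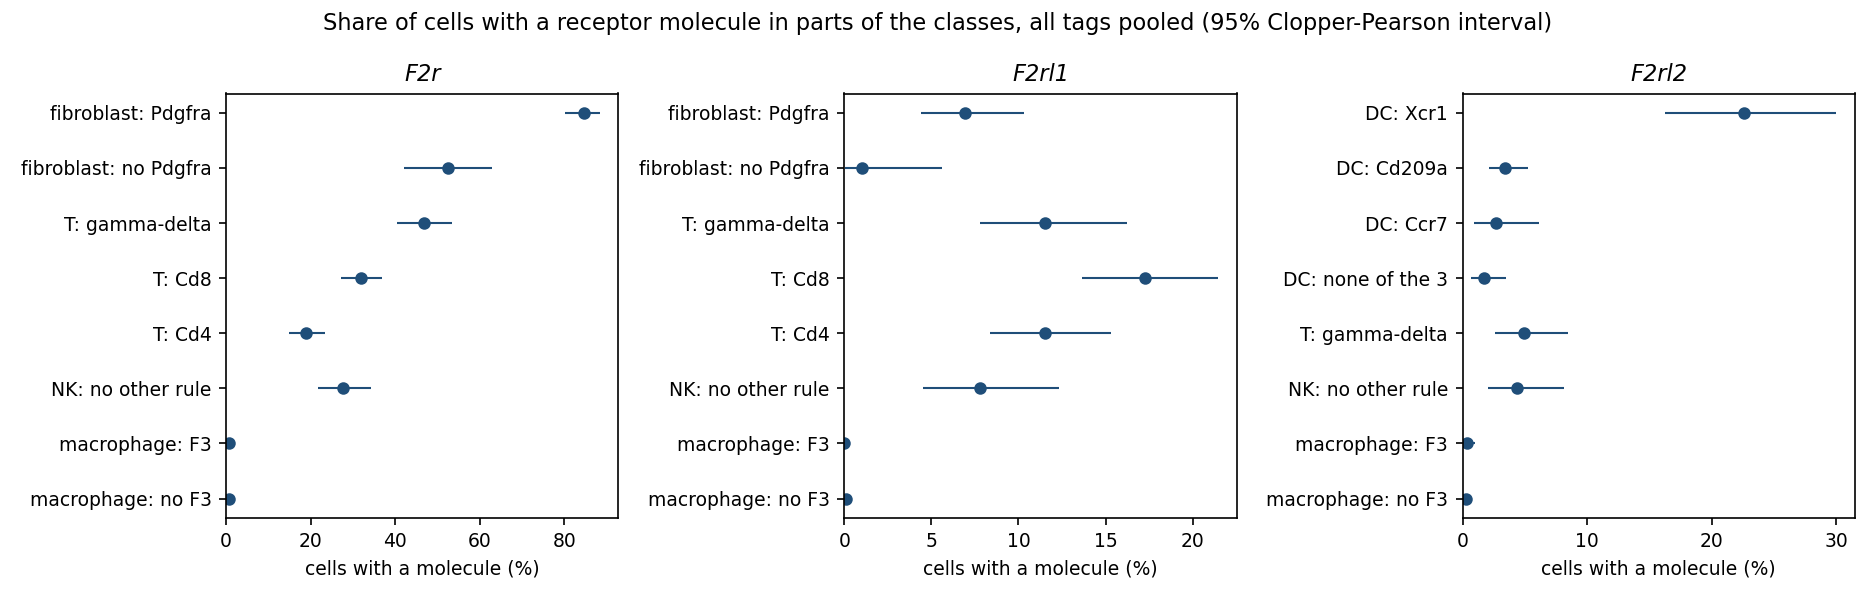
Share of cells with at least 1 molecule of each receptor (horizontal, %) in parts of the classes, all tags pooled, with 95% Clopper-Pearson intervals that cover counting error only. For F2r, fibroblasts with Pdgfra reach 84.5% and gamma-delta T cells 46.9%, for F2rl2 DCs with Xcr1 reach 22.6%, and macrophages with and without F3 sit near 0 for all 3 genes.

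Few cells held more than 1 receptor. F2r and F2rl1 were found together in 56 of 1225 T cells, 22 of 414 fibroblasts and 1 of 14885 macrophages, and F2r with F2rl2 in 23 T cells and 0 DCs. Any of the 3 receptors was found in 77.5% of fibroblasts, 38.1% of T cells, 29.2% of NK cells, 5.82% of DCs and 1.14% of macrophages. The fourth family member, F2rl3 (PAR4, a thrombin receptor of platelets), had 51 molecules in all cells. Macrophages held 17 of them (33.3%, beside 68.5% of all molecules) and T cells 11 (21.6%, beside 4.04%). All 8 platelet markers checked were found. Gp9 was at 0 in 4 of the 8 classes and reached 1.56 CPM, in fibroblasts, while Pf4, which macrophages also make, stood at 1117 CPM in macrophages. Both were picked after their values were seen, and levels of the other markers are not given. How much platelet RNA the cells held cannot be read from them.

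The intracellular partners were found in all 8 classes, and macrophages were set against each of the 7 others. Each count of members called is set against the share of all 10319 genes tested that passed in that comparison, since most genes differ between cell classes. Against fibroblasts 5 of the 8 members tested were higher and 3 lower in macrophages, where 69.0% of all genes passed, 31.0% higher and 38.0% lower. Against T cells 4 were higher and 3 lower (65.8% of all genes, 31.8% higher and 34.1% lower). Against NK cells 4 were higher and 2 lower (54.8%, 28.3% and 26.5%), and against B cells also 4 and 2 (49.8%, 25.9% and 24.0%). Against DCs 3 were higher and 1 lower (61.3%, 30.0% and 31.2%), and against monocytes 3 and 2 (52.9%, 26.0% and 27.0%). The F2rl1 call among those against monocytes rests on 1 cell. Against neutrophils 1 was higher and 1 lower (65.2%, 41.5% and 23.6%). At these background shares 4 to 6 of any 8 genes would pass, so the counts of 4 to 8 set nothing particular to the members, and the 2 against neutrophils lay below the background. The median log2 difference of all genes was between -0.08 and 0.03 except against neutrophils, where it was 0.48.

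Gna12, the alpha subunit of G12 that acts on the cytoskeleton, was the only member higher in macrophages than in every other class. It ranged from 57.0 to 144 CPM in macrophages (median 102, 18 tags), from 30.4 to 106 in B cells (median 59.3), from 25.3 to 87.8 in T cells (median 51.7) and from 11.1 to 51.7 in monocytes (median 36.9). Medians were 51.0 CPM in NK cells, 29.5 in fibroblasts, 22.7 in DCs and 17.6 in neutrophils. The DC, neutrophil, monocyte and fibroblast ranges lay below the lowest macrophage tag, and the ranges of T, NK and B cells overlapped it. The log2 difference was largest against DCs (2.12 ± 0.14, 4.35-fold, edgeR adjusted p = 1.34e-24) and neutrophils (2.07 ± 0.28, adjusted p = 3.20e-10). It was 1.66 ± 0.18 against fibroblasts, 1.24 ± 0.15 against monocytes, 1.15 ± 0.17 against NK cells, 1.1001 ± 0.12 against T cells and 0.83 ± 0.12 against B cells (higher in 17 of 18 tags, and in every tag of the other 6 comparisons), the highest adjusted p being 1.03e-08. With cells of 1 rule only, where the T, NK and B sums hold fewer macrophage transcripts, the differences from these 3 classes were 2.40, 3.41 and 1.83. Exons of Gna12 overlap exons of Amz1 on the other strand, so part of its count is uncertain.

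Gna13, the partner subunit of G13, did not follow Gna12. Its medians were 558 CPM in DCs (314 to 740), 531 in monocytes (349 to 574), 471 in T cells (383 to 596), 419 in B cells and 385 in macrophages (301 to 490). Fibroblasts held 93.3 CPM (68.9 to 117), below every tag of the other classes. Macrophages were lower than DCs (-0.48 ± 0.07, edgeR adjusted p = 9.90e-09) and monocytes (-0.44 ± 0.08, adjusted p = 5.96e-06) and higher than fibroblasts (1.91 ± 0.10, adjusted p = 2.28e-32). The monocyte call was lost without library 1 (adjusted p = 0.170), which left 2 tags. The small difference from T cells (-0.19 ± 0.07, adjusted p = 0.0108) was lost without library 2 (0.0863), without library 3 (0.169), with cells of 1 rule only (0.0942) and with no filter on low counts, where the value was 0.0015. Exons of Gna13 overlap those of Gm11696 on the other strand.

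Gnaq and Gna11 encode the closely related subunits of Gq and G11, which act on phospholipase C beta. Between macrophages and fibroblasts they differed in opposite directions. Gnaq had its highest medians in neutrophils (218 CPM, 64.7 to 570), monocytes (204 CPM, 51.9 to 224) and macrophages (126 CPM, 107 to 192), and its lowest in fibroblasts (55.9 CPM, 39.3 to 118). Library 1, where Gnaq was higher, gave most of the neutrophil and monocyte tags but not of the macrophage tags. Without library 1 the monocyte median was 66.0 CPM, so this order depends on the mix of libraries. Gna11 was highest in fibroblasts (43.4 CPM, 28.9 to 63.7), all above the range of NK cells (median 10.6 CPM), and lay at 5.42 CPM in macrophages (4.25 to 7.80), 2.12 in monocytes and 0 in neutrophils, where 5 of 9 tags held none. Neutrophil sums are small: the 0 in tag 6 of library 1 allows 17.1 CPM, above every macrophage tag. Gna11 did not pass against neutrophils (0.71, edgeR adjusted p = 0.342). Against fibroblasts, Gna11 was 8.65-fold lower in macrophages (-3.11 ± 0.21, edgeR adjusted p = 2.99e-25) and Gnaq 1.82-fold higher (0.87 ± 0.13, adjusted p = 4.72e-09). Gnaq was also higher in macrophages than in T cells (0.78 ± 0.09, adjusted p = 2.41e-12), NK cells (0.72 ± 0.12), DCs (0.53 ± 0.10) and B cells (0.37 ± 0.09), the highest adjusted p being 0.000634. The B cell call was lost with cells of 1 rule only (0.50, adjusted p = 0.0943) and without the replicate block of tags (0.33, adjusted p = 0.101). In macrophages Gna11 was higher than in monocytes (0.82 ± 0.26, adjusted p = 0.00522, and 0.0656 without library 1). Against T cells (-0.39, adjusted p = 0.0615) and NK cells (-0.65, adjusted p = 0.0630) it did not pass, but did without library 2 (adjusted p = 0.0482 and 0.0193).

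Gnaq counts differed between libraries in every class. The macrophage median was 174 CPM in library 1 against 113 and 124 CPM in libraries 2 and 3, and the neutrophil median 330 against 64.7 (1 tag) and 87.9 CPM. Gnaq spans 254633 bases, and library 1 kept intronic reads. The part of these reads in the difference was not tested. Gnaq was lower in macrophages than in neutrophils over all tags (-0.54 ± 0.13, edgeR adjusted p = 0.000228), but without library 1 the value was 0.29 (adjusted p = 0.280), and with no filter on low counts -0.30 (adjusted p = 0.105). Against monocytes it was -0.04 ± 0.11, and 0.81 without library 1 (adjusted p = 0.0305).

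**Figure D3:**
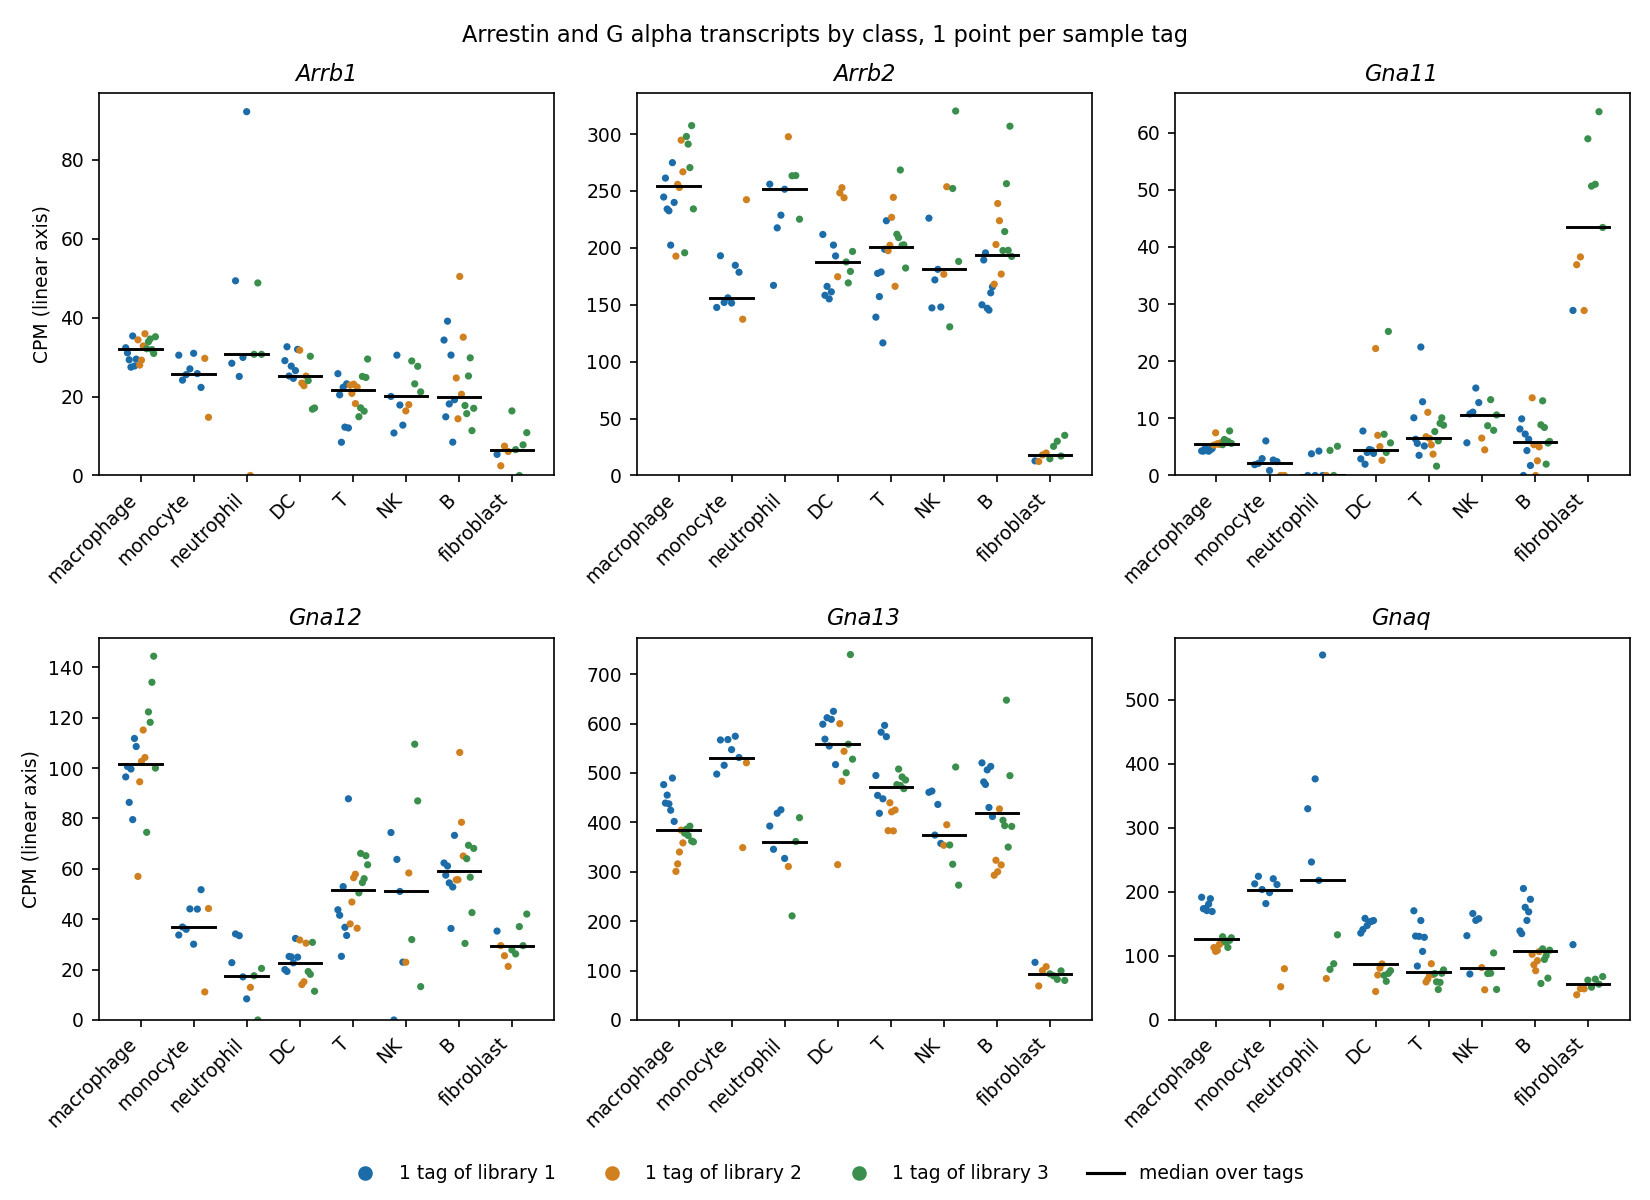
Levels of the 2 beta-arrestins and 4 G alpha subunits in CPM (vertical, linear axis from 0) in 8 cell classes, with 1 point per sample tag of at least 20 cells, coloured by library, and a bar at the median. Gna12 is highest in macrophages (median 102 CPM), Gna11 in fibroblasts (43.4 CPM), and the library 1 points of Gnaq lie above those of libraries 2 and 3 in most classes.

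Arrb2, which encodes beta-arrestin-2, was read in all immune classes and was low in fibroblasts. Macrophages held 193 to 307 CPM (median 254), neutrophils 167 to 298 (median 252), T cells 117 to 268 (median 200), B cells 145 to 307 (median 194), DCs 155 to 253 (median 188), NK cells 131 to 320 (median 181) and monocytes 137 to 242 (median 156). Fibroblasts stood at 12.3 to 35.3 CPM (median 18.1), below every tag of the other classes. Macrophages were 11.5-fold above fibroblasts (3.52 ± 0.13, edgeR adjusted p = 1.03e-42). They were above T, B, NK and dendritic cells and monocytes by 0.34 to 0.46 on the log2 scale, 1.27 to 1.38-fold, the highest adjusted p being 0.00149. The T, NK and B sums hold macrophage transcripts. With cells of 1 rule only, the median was 91.0 CPM in B cells, 148 in T cells and 214 in neutrophils. Without library 1 the calls against monocytes (0.37, adjusted p = 0.299) and NK cells (0.29, adjusted p = 0.0744) were lost. Against neutrophils the difference of -0.13 ± 0.11 did not pass.

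Arrb1, which encodes beta-arrestin-1, was lower in count. It ranged from 27.5 to 35.9 CPM in macrophages (median 32.0), had medians between 19.9 and 30.7 CPM in the other immune classes, whose ranges overlapped, and stood at 6.55 CPM in fibroblasts (0 to 16.4). Macrophages were above fibroblasts by 2.05 ± 0.22 (4.14-fold, edgeR adjusted p = 4.12e-14), T cells by 0.71 ± 0.12 (adjusted p = 2.39e-07), NK cells by 0.72 ± 0.19 (adjusted p = 0.000910) and B cells by 0.54 ± 0.13 (adjusted p = 0.000388). With cells of 1 rule only, the calls against T, NK and B cells were lost (adjusted p = 0.114, 0.0761 and 0.414), where the differences were 0.68, 1.51 and 0.38. The NK call was also lost without library 1 (0.61, adjusted p = 0.0606). Arrb1 did not pass against neutrophils (-0.36), nor in edgeR's joint fit against monocytes (0.16, adjusted p = 0.378) and DCs (0.23, adjusted p = 0.127). DESeq2 called both (0.31, adjusted p = 0.00989, and 0.27, adjusted p = 0.0171), and macrophages were higher in 9 of 9 and 12 of 15 tags. The DC difference also passed with no filter (adjusted p = 0.0168) and with only these 2 classes in the fit (0.00923).

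**Figure D4:**
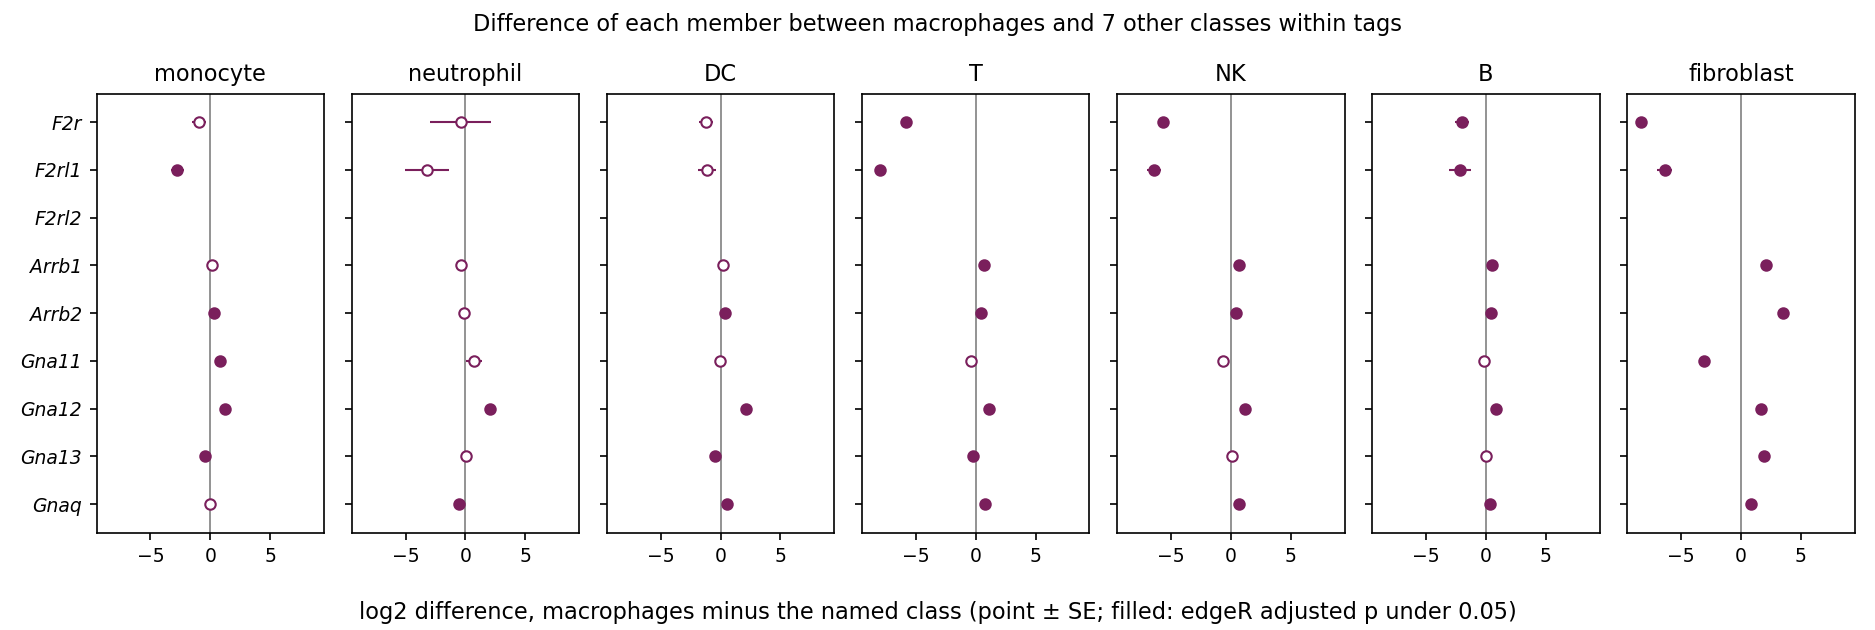
Log2 difference within tags between macrophages and each of 7 other classes for the 9 genes (horizontal, macrophages minus the class; point with SE; filled where the edgeR adjusted p is under 0.05). Gna12 lies right of 0 in every panel, F2r and F2rl1 lie far to the left against T cells, NK cells and fibroblasts, and F2rl2 has no point because it did not pass the expression filter.

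Pathway genes around these members came from 7 fixed lists. Members and lists together held 104 genes, 102 of them in the tables and 79 tested. Against T cells, where 31.8% of all genes were higher and 34.1% lower, the activating proteases and cofactors (13 tested) had 8 higher and 3 lower in macrophages, with a median log2 difference of 1.01 beside -0.02 for all genes. The granzymes Gzmb (-7.77 ± 0.29) and Gzmk (-7.38 ± 0.31), proteases of killer cells, were lowest, and F3 (3.17 ± 0.34) and the neutrophil protease Prtn3 (2.86 ± 0.37) highest. Genes that these receptors induce (10 tested) had 7 higher and 3 lower, effectors such as phospholipases and protein kinase C (20 tested) 11 and 8, G beta and gamma subunits (8 tested) 5 and 1, RGS proteins, which speed the turn-off of G alpha (10 tested), 4 and 4, receptor kinases (5 tested) 1 and 2, and other G alpha subunits (5 tested) 1 and 0. Over all lists 41 of 79 genes were higher and 24 lower.

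Against fibroblasts the induced genes ran the other way, 1 higher and 7 lower of 10, with a median of -1.51 beside -0.08 for all genes, of which 31.0% were higher and 38.0% lower. Ctgf (-8.81 ± 0.45, edgeR adjusted p = 9.68e-33), a matrix protein, and Rgs4 (-8.53 ± 0.29, adjusted p = 5.52e-42), an RGS protein that acts on Gq and Gi, were lowest, and the collagenase Mmp13 (5.28 ± 1.01) and F7 (4.70 ± 0.73) highest. The F7 value is over tags whose F7 genotype is not given. Proteases and cofactors had 7 higher and 2 lower of 13, RGS proteins 6 and 4 of 10, effectors 6 and 9 of 20, G beta and gamma subunits 5 and 3 of 8, receptor kinases 3 and 1 of 5, and other G alpha subunits 2 and 2 of 5. Over all lists 35 of 79 were higher and 31 lower. Under RLE size factors in place of TMM the median of all genes shifted by -0.25 in this comparison, and 2471 genes were higher and 5072 lower against 3197 and 3925. The medians of the G beta and gamma list (0.23) and of the other G alpha subunits (0.10) then changed sign, to -0.03 and -0.16. No member changed direction or call against fibroblasts.

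Macrophages are no uniform class, so members were also compared between macrophages above and below their tag's median share of MHC class II transcripts (H2-Aa, H2-Ab1, H2-Eb1 and Cd74), and likewise of Arg1, Saa3 and Slpi, genes of early wound macrophages. Both are ranges, not cell types: 1398 and 1049 of 14885 cells lay within 1.25-fold of the median. Cells high in MHC class II transcripts had fewer molecules than cells low in them (medians 16714 and 25319), and cells high in the wound genes had more (22762 and 18728.5).

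With high MHC class II transcripts, 3 of the 6 members tested were higher and 0 lower, where 53.0% of 11225 genes passed, 27.4% higher and 25.6% lower. Gna13 stood at 347 to 561 CPM (median 445) in the high cells and 279 to 447 CPM (median 354) in the low cells, higher in 18 of 18 tags (0.28 ± 0.03, edgeR adjusted p = 2.85e-09). Arrb2 was at 221 to 328 CPM (median 275) against 164 to 297 CPM (median 240), also in 18 of 18 tags (0.22 ± 0.03, adjusted p = 9.40e-07). Arrb1 was higher in 15 of 18 tags (0.17 ± 0.04, adjusted p = 0.00174). The ranges overlapped for all 3, and the differences were at most 1.21-fold. Of the receptors, F2rl2 had 44 molecules in the high and 6 in the low cells, higher in 14 tags and lower in 1, with no test. These counts include the 15.7% of macrophages that also met the DC or monocyte rule, and their part in the F2rl2 counts was not tested. F2r had 73 and 113 molecules. Of list genes, the receptor kinase Grk3 was highest (1.39 ± 0.10) and F3 lowest (-1.72 ± 0.19, adjusted p = 5.88e-08).

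With high Arg1, Saa3 and Slpi, 4 of the 6 members tested were lower and 0 higher, where 41.3% of 11131 genes passed, 20.2% higher and 21.1% lower. Gna12 stood at 30.7 to 136 CPM (median 90.9) in the high cells and 99.1 to 156 CPM (median 119) in the low cells, lower in 18 of 18 tags (-0.49 ± 0.09, edgeR adjusted p = 0.000224). Arrb2 was at 130 to 288 CPM (median 229) against 248.8 to 333 CPM (median 295), also lower in 18 of 18 (-0.37 ± 0.06, adjusted p = 6.44e-05). Arrb1 (-0.12 ± 0.04, adjusted p = 0.0353) and Gna13 (-0.08 ± 0.03, adjusted p = 0.0249) were lower in 17 of 18 tags each. Both calls were lost without library 2 (adjusted p = 0.242 and 0.223) and without library 3 (0.221 and 0.127), and that of Gna13 also without library 1 (0.0646). Gna11 and Gnaq passed in neither comparison. Of list genes, Il6 (5.16 ± 0.37) and Prtn3 (4.86 ± 0.22) were highest, and Cyr61 (-1.10 ± 0.24) and Grk3 (-0.96 ± 0.11) lowest. Both comparisons use the same macrophages.

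**Figure D5:**
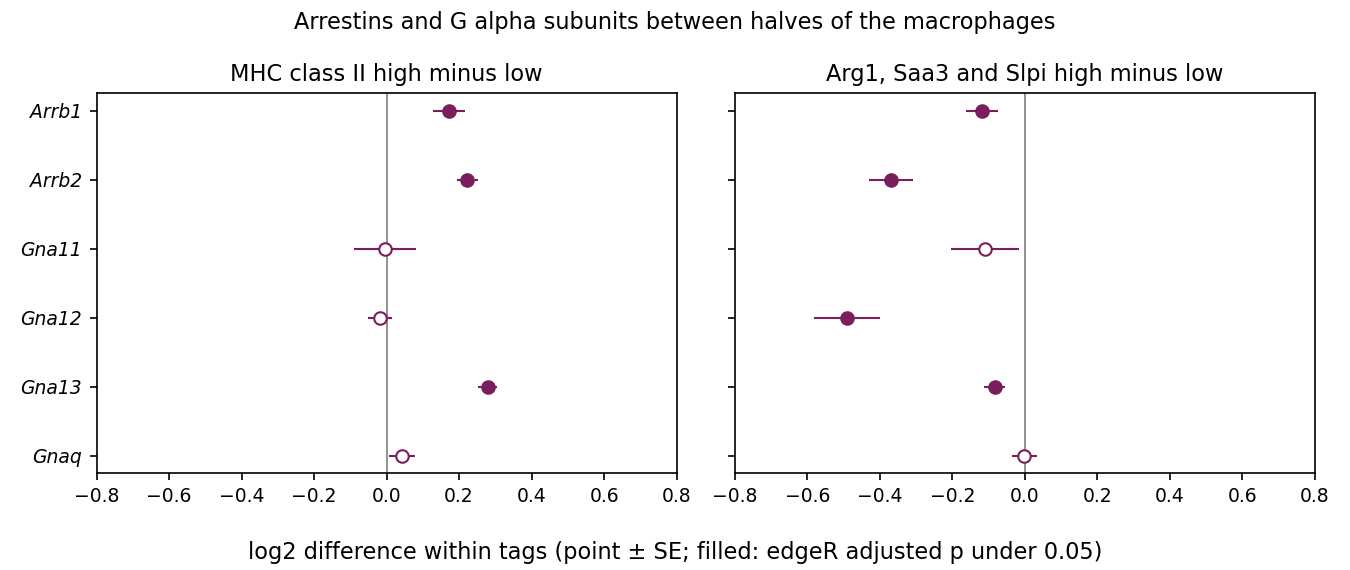
Log2 difference within tags of the 6 members tested (horizontal; point with SE; filled where the edgeR adjusted p is under 0.05) between macrophages above and below the tag's median share of MHC class II transcripts (left panel) and of Arg1, Saa3 and Slpi (right panel). Gna13 lies at 0.28 in the left panel and Gna12 at -0.49 in the right one.

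The genes with the most similar pattern were sought by Pearson correlation of log2(CPM + 5) over 107 sums of class and tag, among 11885 genes. The sums share tags, libraries and the depth of their class, so the values describe and carry no p. F2r was nearest to Itm2a (r = 0.93), Fhl2 and Adgrl1 (0.91 and 0.90), and among the genes near F2rl1 were the T cell signalling genes Prkcq (0.86) and Camk4 (0.85). F2rl2 had no near neighbour, its highest value being 0.56 with Cbarp. Arrb2 was nearest to the leukocyte genes Laptm5 (0.94), Nckap1l (0.94) and Fcer1g (0.92), Gna12 to Selenop (0.84), Ctsb (0.83) and Wwp1 (0.82), and Gna13 to Grb2 (0.91), Fam49b (0.90) and Ubl3 (0.89). Gnaq was nearest to Gab2 (0.87), Rbm47 (0.85) and Vav3 (0.85), Gna11 to Rcn1 (0.82), Wdr35 (0.81) and Nedd4 (0.81), and Arrb1 to Hpcal1 (0.68), Wdfy2 (0.66) and Ptprj (0.66). Among the members themselves, F2r ran with Gna11 (0.71) and against Arrb2 (-0.68), while Arrb2 ran with Gna13 (0.80) and against Gna11 (-0.75).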

How the data were processed

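Transcripts of CD45+ cells from infarcted mouse hearts were read in 3 BD Rhapsody libraries with 18 sample tags. The deposited tables hold counts of corrected molecules per gene and cell, made by the authors with the BD Rhapsody WTA Analysis Pipeline (release 2.0b1 for library 1, release 1.10 for libraries 2 and 3) per the file headers, which name GRCm38 and the GENCODE M19 annotation. Gene positions were looked up in GENCODE M21. The members and gene lists were chosen with earlier results of these data known. The tables had 0 columns of other series.

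Cells with at least 200 genes were kept (122 left out) and classed by marker transcripts. No doublet caller was run; cells that met more than 1 rule were dropped in an alternative. Sums over the cells of a class in a tag (20 cells or more) were compared within tags with edgeR 4.0.16 (quasi-likelihood, TMM, filterByExpr, Benjamini-Hochberg adjustment, threshold 0.05) in R 4.3.3 with limma 3.58.1. All 8 classes shared 1 fit with the tag as a block, because cells of a tag come from the same sample. Nothing says that tags are separate animals beyond the label of biological replicates, so p-values measure the spread between these tags. On simulated counts for macrophages against T cells (9323 genes), 100 of 100 genes changed 2-fold and 100 of 100 changed 4-fold were recovered, and 7 of 9123 unchanged genes were called. The changed genes were drawn from those at 20 CPM or more in macrophages. The receptors and Gna11 lay below that level, so the simulation does not cover them. Comparisons with the other classes, some with fewer tags, were not scored.

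Shares of cells were also computed after thinning each cell to 1000 molecules. Intervals and limits (95%, and 3 counts for a count of 0) cover counting error only. Named genes were the 9 members, F2rl3, per comparison the 2 list genes with the largest and the 2 with the smallest called differences (only some comparisons are described), and the 3 genes most like each member; a gene named by the last part is not reported here. Genes outside this rule (Iqgap2, platelet markers) were chosen after their values were seen. Alternatives were DESeq2 1.42.0, RLE size factors, no filter, no replicate block, at least 50 cells or 500 genes, cells of 1 rule only, each library left out (tables call a library a replicate) and only 2 classes in a fit. Python 3.11.15, numpy 2.4.6, pandas 2.3.3, scipy 1.17.1, statsmodels 0.14.6 and matplotlib 3.10.9 were used.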

Additional observations from a re-analysis of the deposited data

Results flagged for a closer look

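In macrophages of library 2, 1 of 5 tags stood apart for Gna11, at 7.47 CPM against 5.31 to 5.73 CPM in the other 4. Its gap to the nearest tag was 0.809 of the range, above the 95% limit of 0.710 for 5 samples. Such a limit is passed by chance in some of the 28 groups looked at, and no explanation was tested.

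Cells that met no class rule (3766) are in no comparison and held receptor transcripts above the limit that a count of 0 allows: F2r at 6.21 CPM, F2rl1 at 0.646 CPM and F2rl2 at 0.960 CPM with all tags pooled. F2r stood at 75.7 CPM in the 185 of these cells with at least 2 molecules of the endothelial genes Cdh5 and Pecam1 together, 19.5% of which had an F2r molecule (14.02 to 25.9), and at 2.04 CPM in the other 3581. The F2r level of those 185 cells was 78.9, 81.1 and 55.7 CPM in libraries 1, 2 and 3. F2rl1 stood at 9.53 CPM in the same 185 cells, from 31 molecules in 6 cells, and at 0.111 CPM in the others. This grouping was made after the data were seen and was not tested.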

How the results depend on the processing

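Of the member differences recomputed under the alternatives, 633 kept their direction and side of the threshold, 31 lost their call, 16 gained one and 38 changed sign; in each the cause was not tested. The number of genes called against monocytes was 5459 and ran from 1035 to 5538 with a library left out, the lowest without library 1, where 2 tags of library 2 remain and fewer sums are tested. Against NK cells it was 5652, 3438 with cells of 1 rule only, and 3528 to 5433 with a library left out. Without the replicate block of tags, calls between macrophages high and low in MHC class II transcripts fell from 5948 to 2783, and between those high and low in Arg1, Saa3 and Slpi from 4598 to 2140. No member gained a call without the block. Under other alternatives calls were gained by Arrb1 and F2rl1 against DCs, Arrb1 and Gnaq against monocytes, and F2rl1 and Gna13 against neutrophils. They were also gained by F2r against DCs, Gna11 against T and NK cells and Gna13 against NK cells. Without the block the members Arrb1 and Gna13 in the second split, and Gnaq and F2rl1 against B cells, lost their calls.

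Of called differences, 4 changed sign: F2rl1 against monocytes and Gnaq against neutrophils without library 1, F2rl1 against B cells with cells of 1 rule, and Gna13 against T cells with no filter. Against monocytes Gnaq was 0.13 with DESeq2, 0.10 with no filter, 0.13 under RLE and 0.041 with cells of 1 rule. Against neutrophils Arrb2 was 0.11 with no filter and 0.22 with cells of 1 rule, and with at least 50 cells Gna11 was -0.041 and Gna13 -0.053. Against DCs Gna11 was 0.014 with DESeq2, 0.13 with no filter, 0.027 under RLE, 0.31 with at least 50 cells and 0.46 with cells of 1 rule. Gna13 against T cells was 0.0015 with no filter. Against B cells F2rl1 was 0.67 with cells of 1 rule, Gna11 0.052 with no filter, and Gna13 0.16 with no filter, 0.12 with at least 50 cells and 0.12 with cells of 1 rule. In the MHC class II split with cells of 1 rule Gna11 was 0.014 and Gna12 0.040. In the Arg1, Saa3 and Slpi split Gnaq was 0.013 with no filter, 0.00097 under RLE and 0.0072 with cells of 1 rule.

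With a library left out, the values that changed sign ran as follows. Against monocytes F2r ran from -1.03 to 3.64, F2rl1 from -2.94 to 1.16 and Gnaq from -0.12 to 0.81. Against neutrophils F2r ran from -1.48 to 4.37, F2rl1 from -3.72 to 0.90, Arrb1 from -0.40 to 0.067 and Gnaq from -0.77 to 0.29. Against DCs F2rl1 ran from -1.40 to 0.90 and Gna11 from -0.48 to 0.15. Gna13 against B cells ran from -0.076 to 0.035. In the MHC class II split Gna11 ran from -0.11 to 0.087 and Gnaq from -0.069 to 0.083, and in the other split Gnaq from -0.0079 to 0.030. F2rl2 in the permutation test, whose alternatives were chosen after seeing the data, had a mean difference in CPM from macrophages of -0.23 in B cells with cells of 1 rule, and with a library left out it ran from -0.051 to 6.92 in neutrophils and from -0.029 to 0.58 in fibroblasts.

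With cells of 1 rule only, median levels moved in T cells to 65.5 CPM (F2r), 5.56 (F2rl2), 148 (Arrb2), 12.9 (Gna11), 14.3 (Gna12) and 580.3 (Gna13), in NK cells to 52.1 (F2r), 11.7 (F2rl1), 25.4 (F2rl2) and 12.8 (Gna12), in B cells to 91.0 (Arrb2) and 33.9 (Gna12), and in neutrophils to 214 (Arrb2). With a library left out, monocyte levels ran from 0.266 to 3.71 CPM (F2rl2), 156 to 190 (Arrb2), 0 to 2.43 (Gna11), 435 to 547 (Gna13) and 66.0 to 212 (Gnaq), and Gnaq from 120 to 170 in macrophages, 71.6 to 141 in DCs and 72.8 to 132 in NK cells. Thinning moved 71 of 72 shares of cells. In macrophages, monocytes, neutrophils, DCs, T, NK, B cells and fibroblasts in turn, the thinned F2r shares were 0.00672, 0, 0, 0.0747, 5.06, 3.41, 0.134 and 13.6%, and those of F2rl1 0.00672, 0, 0, 0, 2.94, 0.730, 0 and 0.484%. Those of F2rl2, neutrophils apart, were 0.0403, 0, 0.672, 0.735, 0.243, 0 and 0%. Neutrophils held few molecules (median 3990 a cell), which limits what could be detected there.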
